A study of Mus musculus with 24 samples.

Results

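Interferon response genes are described here across retroperitoneal adipose tissue of C57BL/6J mice, the fat pad behind the abdominal cavity. They are 39 genes named by symbol from what is known of the family, and chosen with earlier results of these data known. All 39 were found in every table, among 56895 entries of the RNA-seq tables. The study asked how vitamin D deficiency of the mother and a high fat diet of the offspring act on adipose tissue. Mothers ate a control diet (CTRL, 1.0 IU of vitamin D3 per g) or a vitamin D deficient diet (VDD, 0.0 IU per g) for 8 weeks before mating and through gestation, and all ate the control diet after delivery. Their sons and daughters ate a low fat diet (LF) or a high fat diet (HF, 45% of energy from fat) for 8 weeks from 6 weeks of age. The 24 libraries, one per mouse, fell into 8 groups of 3, which were CTRL LF, CTRL HF, VDD LF and VDD HF males and the same 4 groups of females. The libraries of a group are called a, b and c, and values of single libraries are given in that order. The mice carried no transgene or deletion in the labels, and the RNA came from whole fat pads, so all cell types of the pad were measured together. In such bulk tissue fewer cells of a type and less RNA per cell cannot be told apart. The labels do not give the litter, so each mouse was treated as independent. The p-values weigh differences against the spread between these mice, and for maternal diet not against the spread between mothers.

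Interferons are secreted proteins that cells release when they sense viral or misplaced nucleic acid. Type I interferons act through a receptor that activates the kinases Jak1 and Tyk2 and a complex with Stat2 and Irf9, which binds a DNA element called the ISRE. Type II interferon (Ifng) acts at a second element called GAS. In adipose tissue the targets are known in adipocytes as well as in resident and recruited macrophages.

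Promoters of RefSeq genes (GRCm38.p6) were read as windows of 300 bases, 250 before and 50 after the start. A window was found for 30 of the 39 genes. The ISRE core was searched as GAAANNGAAA on both strands, and matches could overlap each other. It stood in 19 of the 30 windows (63.3%), compared with 1079 of 27025 windows of all genes (3.99%). The GAS element TTCNNNGAA, whose reverse complement has the same letters, stood in 10 of 30 (33.3%), compared with 9.55% of all windows. A match is a run of letters and not a measured binding site. The printed stretches hold the ISRE cores in capitals with 20 bases on each side, 5′ to 3′ on the strand of the gene. Isg15 and Bst2 carry overlapping cores, Gbp2 and Ddx58 carry 1 core each, and all of them rose under HF diet. Rsad2 carries 1 core and was the member with lower levels under HF. Ifit3 and Ifit3b share the same stretch, and Oas1a and Oas1g nearly so. Each stretch is given with its position.
Isg15, chr4:156200855-156200916, minus strand: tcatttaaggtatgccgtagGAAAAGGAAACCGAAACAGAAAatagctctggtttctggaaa
Bst2, chr8:71537567-71537622, minus strand: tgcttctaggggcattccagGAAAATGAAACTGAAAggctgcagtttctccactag
Gbp2, chr3:142620584-142620633, plus strand: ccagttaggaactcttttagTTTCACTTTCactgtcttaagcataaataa
Ddx58, chr4:40239794-40239843, minus strand: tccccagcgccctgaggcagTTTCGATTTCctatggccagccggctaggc
Rsad2, chr12:26456543-26456592, minus strand: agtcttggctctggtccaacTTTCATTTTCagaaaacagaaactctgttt
Ifit3, chr19:34583353-34583436, plus strand: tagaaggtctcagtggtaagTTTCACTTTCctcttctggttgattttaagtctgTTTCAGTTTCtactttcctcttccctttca
Ifit3b, chr19:34607749-34607832, plus strand: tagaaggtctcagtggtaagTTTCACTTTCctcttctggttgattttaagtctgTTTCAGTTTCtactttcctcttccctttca
Oas1a, chr5:120907510-120907565, minus strand: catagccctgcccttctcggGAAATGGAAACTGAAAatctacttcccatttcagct
Oas1g, chr5:120887596-120887651, minus strand: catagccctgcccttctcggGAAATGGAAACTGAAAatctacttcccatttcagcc

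Libraries held 13346779 to 18484346 reads (median 15933506), recovered as whole reads from the deposited log2 values. Markers of tissues other than fat were uneven between libraries. The summed normalized reads of 8 skeletal muscle markers ran from 130 to 979000 and passed 100000 in 4 libraries, which were VDD LF male c, VDD HF males a and b, and VDD LF female a. Kidney markers summed to 7076 in VDD LF female a and to at most 569 in the others. Adrenal markers summed to 32550 in CTRL HF female c, 18870 in VDD HF female c and 9878 in CTRL HF female a, with at most 1790 in other females and 317 in males. In 6 libraries the deposited column name also holds the word renal, whose meaning the sources used here do not give. These were CTRL LF male a, CTRL HF male c, VDD LF male b, VDD HF male b, CTRL LF female a and VDD LF female c. No HF female was among them. VDD HF female a had T cell markers at 1064 and NK cell markers at 695, with at most 347 and 176 elsewhere. The 6 adipocyte markers summed to at least 288800 in every library.

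Levels per kilobase of exon, averaged over the 24 libraries, spanned a wide range. Ifi27l2a, a small hydrophobic protein of internal membranes, was highest at 32800 normalized reads per kb (a mean of 15200 normalized reads, 4610 to 37800 by library). It took 0.0283% to 0.22% of a library and stood at rank 84 by mean normalized reads among the 18399 genes tested. Bst2 followed at 887 normalized reads per kb, 37.0-fold lower, and Gbp2 at 528 normalized reads per kb. At the low end, Mx1, Oas1g and Mx2 lay at 12.5, 12.3 and 12.3 normalized reads per kb and did not differ beyond their spread. Oas3 was lowest at 3.16 normalized reads per kb (22.3 normalized reads, 3.52 to 71.0 by library). Several members sit in gene clusters (GRCm38): Gbp5, Gbp7, Gbp3 and Gbp2 on chromosome 3 between 142493978 and 142638008, the 4 Ifit genes on chromosome 19 between 34550694 and 34650009, and Oas2, Oas3, Oas1g and Oas1a on chromosome 5 between 120730333 and 120907521. Ifit3 and Ifit3b, and Oas1a and Oas1g, are near-identical copies, so their counts from uniquely aligned reads are uncertain. Within groups of 3 the members varied with a median SD of 0.358 on the log2 scale (0.193 for Cmpk2 to 0.746 for Oas3), close to the 0.377 of all tested genes.

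HF diet raised 22 of the 39 genes and lowered none of them. The test was a fit over all 24 libraries (limma on log2 normalized reads, adjusted p under 0.05), which compared HF with LF over the 4 strata of maternal diet and sex. Of all 18399 genes tested, 15.0% rose and 29.2% changed in either direction. The median difference of the 39 genes was 0.45 on the log2 scale, while the median of all genes was 0.01. HF means were higher for 38 of the 39. In either direction 30 reached an unadjusted p under 0.05, against 39.7% of all genes, and these include Rsad2, the gene with a lower HF mean. The 22 genes that rose did so by 1.26- to 2.47-fold (median 1.45-fold).

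**Figure D1:**
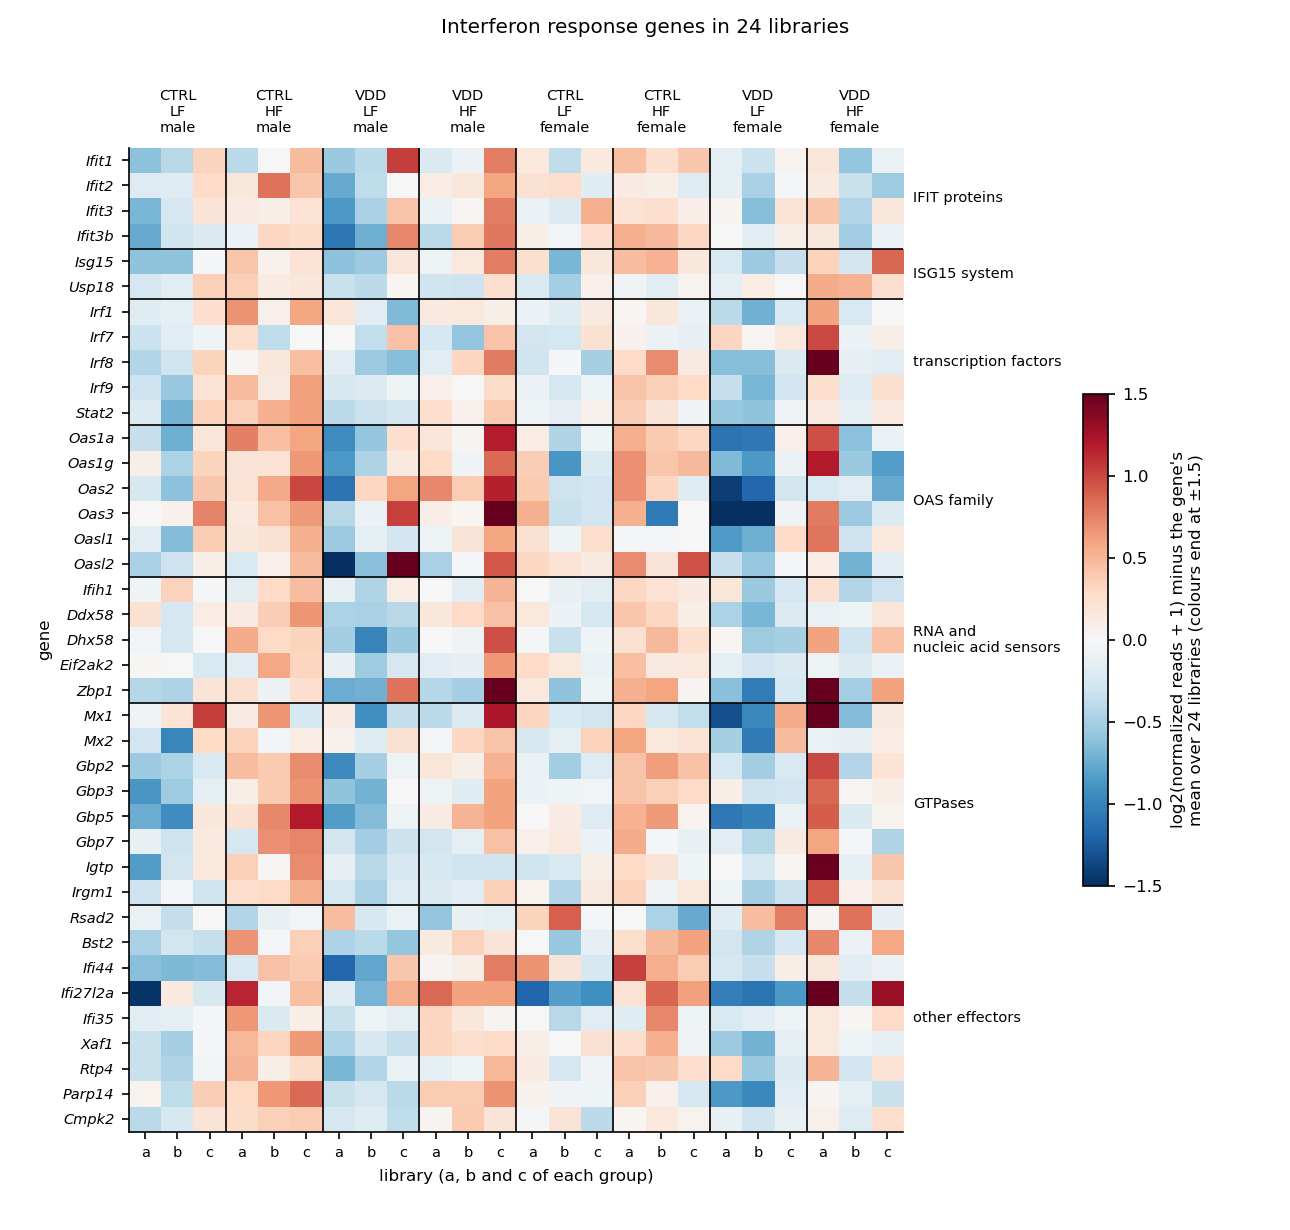
Log2(normalized reads + 1) of the 39 genes (rows, by role) in the 24 libraries (columns, by group), each as the difference from the gene's mean, red above and blue below, with colours ending at 1.5 either way. LF groups are mostly blue and HF groups mostly red, and in most groups one library is darker than its neighbours, as for VDD HF male c and VDD HF female a.

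Among the sensors of nucleic acid, Ddx58 and Dhx58 rose and Ifih1, Eif2ak2 and Zbp1 did not pass the test. Ddx58 (RIG-I), which senses viral RNA in the cytosol, had 299, 404 and 565 normalized reads as the lowest, median and highest of 12 LF libraries, and 450, 567 and 764 in 12 HF libraries. All 12 HF libraries lay above the LF median and 6 above every LF library. The log2 difference of Ddx58 was 0.48 ± 0.08 (SE, limma adjusted p = 0.000375). Dhx58 (LGP2), a regulator of the RIG-I family, was 105 at the LF median and 162 at the HF median, with a log2 difference of 0.64 (limma adjusted p = 0.00137). Zbp1, a sensor of Z-form nucleic acid that can start cell death, differed by a similar 0.63 but varied more within groups (limma adjusted p = 0.0751). Ifih1 (MDA5) and Eif2ak2 (PKR) differed by 0.18 and 0.24 (limma adjusted p = 0.230 and 0.0849).

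Of the transcription factors, Irf1, Irf8, Irf9 and Stat2 rose. Irf9, the DNA-binding part of the complex at the ISRE, ran from 308 to 574 normalized reads in LF libraries (median 416) and from 433 to 760 in HF libraries (median 599). Its HF libraries lay above the LF median in 12 of 12 cases, and its log2 difference was 0.49 (limma adjusted p = 0.000553). Stat2, its partner, differed by 0.48 (limma adjusted p = 0.00156), Irf8, a factor of macrophage and dendritic cell lineages, by 0.68 (0.00829) and Irf1, a factor of the type II response, by 0.37 (0.0166). Irf7, which drives later type I interferon production, had medians of 508 and 504 normalized reads under LF and HF and a log2 difference of 0.05 (limma adjusted p = 0.818).

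The antiviral IFIT proteins, which bind viral RNA, had no member past the test by limma or limma-voom, with log2 differences from 0.19 (Ifit1) to 0.36 (Ifit3b) and adjusted p from 0.0972 to 0.476. One of the 4, Ifit2, had an unadjusted p under 0.05. In the ISG15 system, Isg15, a ubiquitin-like modifier, rose from a median of 76.9 normalized reads in LF libraries to 128 in HF libraries. Its log2 difference was 0.60 (limma adjusted p = 0.00632), and all 12 HF libraries exceeded the LF median. Usp18, the protease that removes Isg15, differed by 0.24 (limma adjusted p = 0.0716).

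In the OAS family, named for enzymes that make short oligoadenylates that switch on RNase L, Oas1a and Oas2 rose. Oas1a had 40.1, 66.2 and 104 normalized reads as the lowest, median and highest LF values and 56.9, 117 and 199 under HF, a log2 difference of 0.78 (limma adjusted p = 0.00715). The other four had log2 differences from 0.30 (Oasl2) to 0.59 (Oas1g) and limma adjusted p from 0.0533 (Oas1g) to 0.410 (Oasl2). Oasl2 ranged widely within one group, with 1346 normalized reads in VDD LF male c and 142 in VDD LF male a of the same group.

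Among the GTPases, which act against intracellular pathogens, the guanylate-binding proteins Gbp2, Gbp3 and Gbp5 and the immunity-related Irgm1 and Igtp rose. Gbp2 had 647, 975 and 1190 normalized reads as the lowest, median and highest LF values and 924, 1700 and 2487 under HF. For Gbp2, 11 of 12 HF libraries lay above all LF libraries, the exception being VDD HF female b. The log2 difference of Gbp2 was 0.77 ± 0.13 (SE, limma adjusted p = 0.000304), and that of Gbp5 was 0.89 (0.000834). Gbp3 differed by 0.59 (limma adjusted p = 0.00171) and Irgm1 by 0.45 (0.00458). Igtp passed narrowly at 0.40 (limma adjusted p = 0.0468), and its call was lost in 22 of 29 other fits at the same threshold, with adjusted p from 0.00754 to 0.327. Gbp7, Mx1 and Mx2, the last pair being antiviral dynamin-like proteins, differed by 0.29 to 0.33 without passing.

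All 8 of the other effectors with higher HF means rose. Bst2 (tetherin), which holds budding virus at the cell surface, had the smallest p of the 39. It had 514, 592 and 765 normalized reads as the lowest, median and highest LF values and 722, 981 and 1270 under HF, so that 10 of 12 HF libraries lay above every LF library. Its log2 difference was 0.71 ± 0.10 (SE, limma adjusted p = 5.6e-05). Ifi27l2a had the largest difference, 1.30 ± 0.22 (SE, limma adjusted p = 0.000335), from an LF median of 7160 to an HF median of 19600 normalized reads. Xaf1, which favours cell death, ran from 181 to 347 normalized reads under LF and from 269 to 459 under HF, a log2 difference of 0.50 (limma adjusted p = 0.000286). Parp14, an ADP-ribosyltransferase, also differed by 0.50 (limma adjusted p = 0.00175), and Ifi44, Rtp4, Cmpk2 and Ifi35 by 0.56, 0.45, 0.34 and 0.33. Rsad2 (viperin), an enzyme that makes a chain-terminating nucleotide, had 335, 425 and 802 normalized reads under LF and 254, 396 and 757 under HF. Its log2 difference was -0.32 ± 0.14 (SE, limma adjusted p = 0.104), with only 3 HF libraries above the LF median. Cmpk2, a nucleotide kinase gene that neighbours Rsad2 on chromosome 12, rose (limma adjusted p = 0.00608), from a median of 183 to 241 normalized reads.

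**Figure D2:**
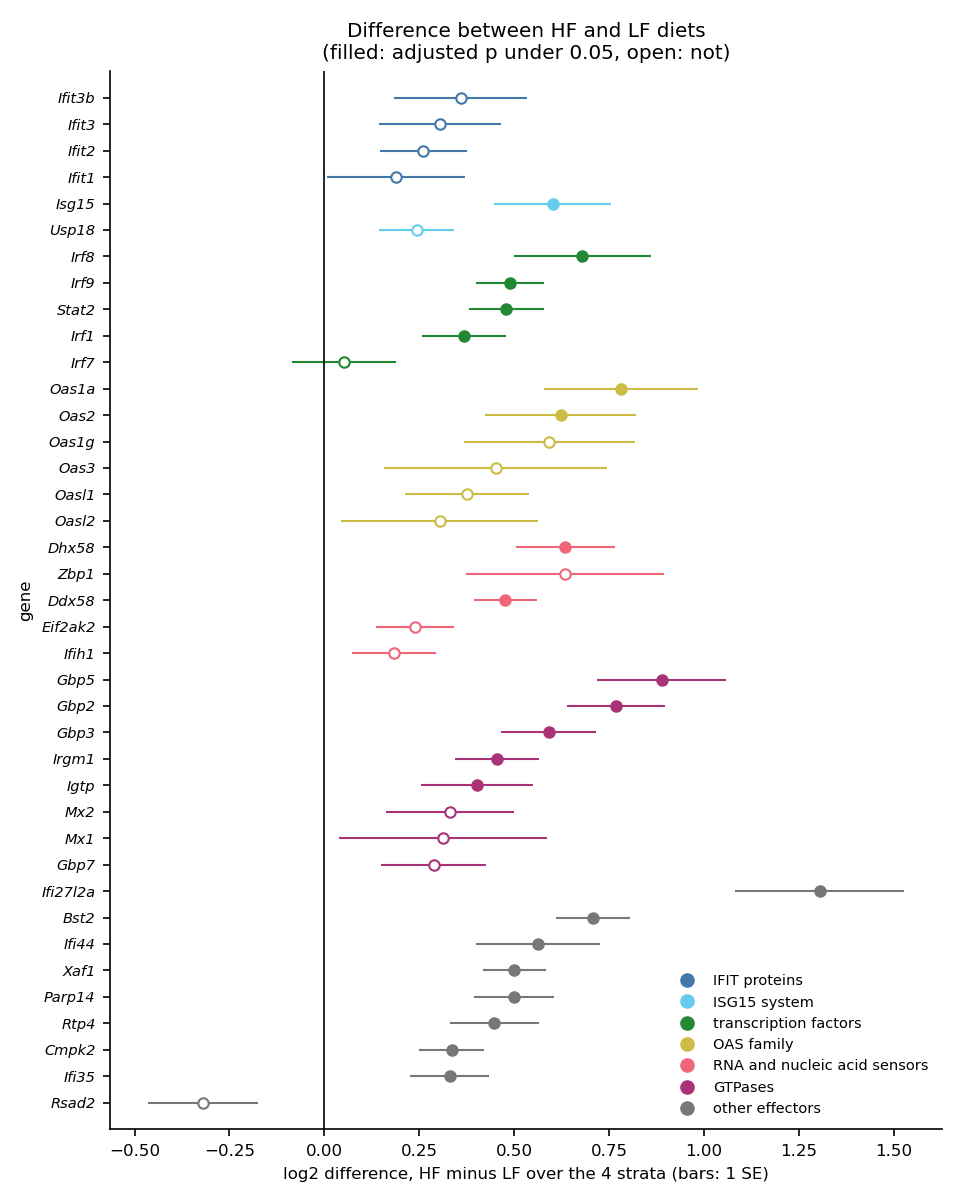
Log2 difference between HF and LF diets over the 4 strata (x axis) for each gene (y axis), with bars of 1 SE, filled where the limma adjusted p was under 0.05. The 22 filled points all lie right of 0, Ifi27l2a is farthest right at 1.30, and Rsad2 alone lies left of 0.

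The 13 genes Bst2, Ddx58, Dhx58, Gbp2, Gbp3, Gbp5, Ifi27l2a, Irf9, Oas1a, Oas2, Parp14, Stat2 and Xaf1 kept their call in 29 other fits at the same threshold (limma-voom, no filter, another pseudocount, or libraries left out). At the stricter limits of adjusted p under 0.01 and a fold above 1.5, 9 of the 39 were called. The share of all genes at these limits is not given here, so this count is a description only. Of the 13 genes, the calls of Ddx58, Irf9, Oas2, Parp14, Stat2 and Xaf1 were lost at these limits. Without the 4 libraries rich in muscle markers the median log2 difference of the 39 genes was 0.553, with higher HF means for 38. That fit leaves library c alone among VDD HF males. Its mean of the 39 genes lay 0.605 above their overall means on the log2 scale, against -0.004 and 0.058 in a and b. The fit also drops VDD LF male c, the highest of its group (0.05, against -0.48 and -0.437). Without the 6 libraries named renal 13 rose, all among the 22, while 1737 of all 18058 genes rose. Promoters of the members that rose held an ISRE core in 10 of 17 windows (58.8%) and a GAS element in 7 of 17 (41.2%). Those of the members that did not pass held them in 9 of 13 (69.2%) and 3 of 13 (23.1%).

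**Figure D3:**
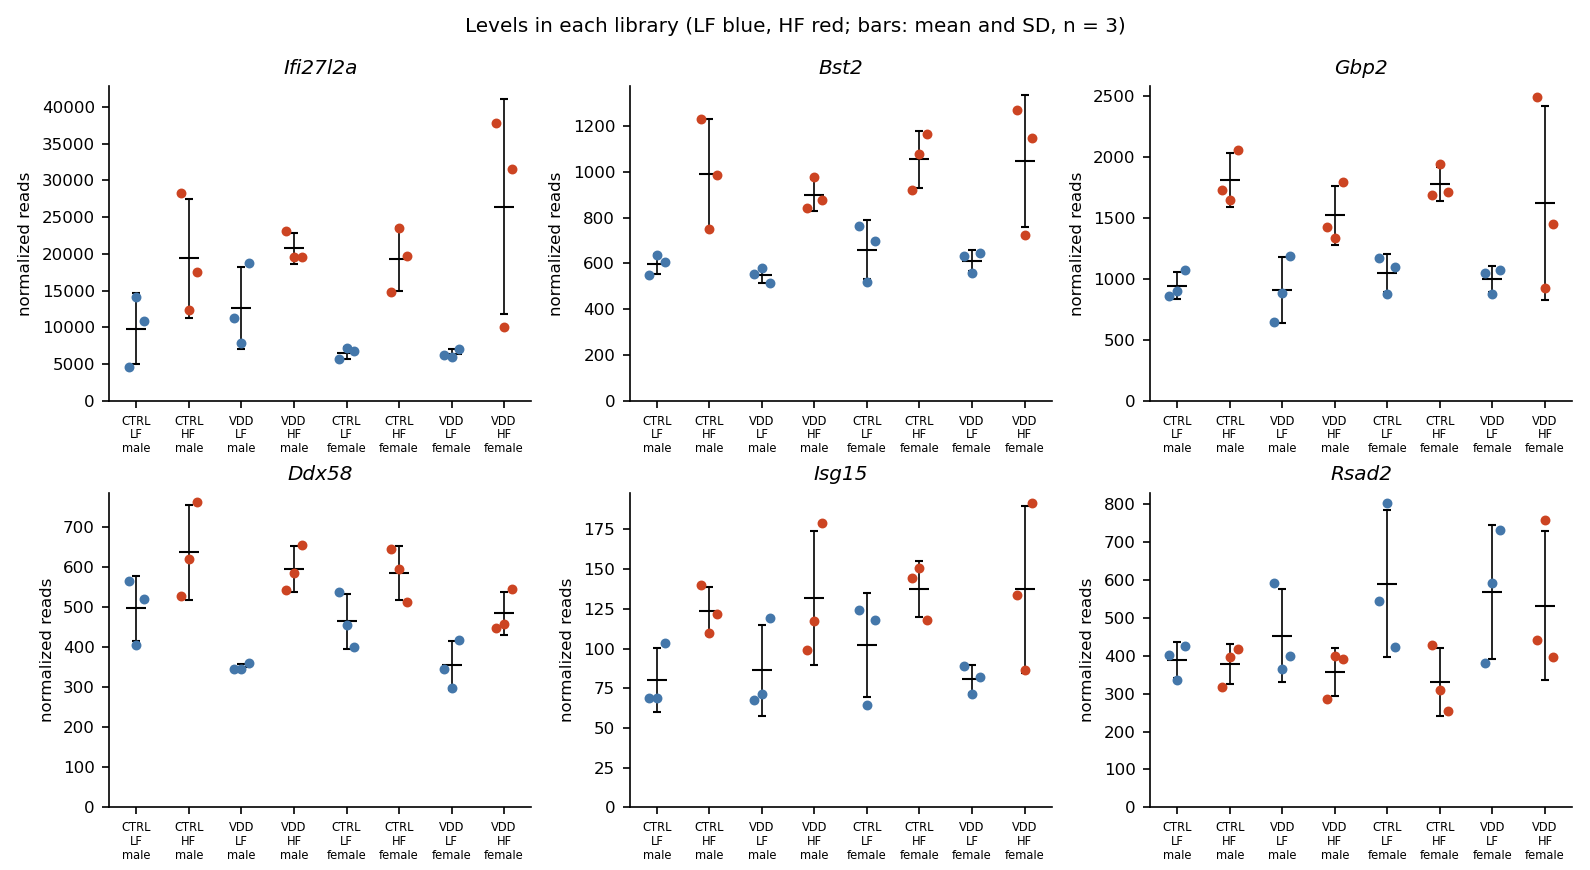
Normalized reads (y axis, starting at 0) of 6 genes in the 3 libraries of each group (points, LF blue and HF red), with the mean and SD. Bst2 shows no overlap of LF and HF in any of the 4 pairs of groups, Ifi27l2a reaches 37760 in VDD HF female a, and Rsad2 overlaps throughout.

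The study's own comparisons set 3 HF against 3 LF libraries within each maternal diet and sex. Its limits, which the study applied to DESeq2 results, were an adjusted p under 0.01 and a fold above 1.5 or below 0.66. With limma in place of DESeq2, 0 of the 39 genes were called in any of the 4, as also by limma-voom. Of all genes these limits called 0.0578% in CTRL males, 0.0752% in VDD males, 0.0% in CTRL females and 0.0% in VDD females. At an unadjusted p under 0.05 there were 19, 13, 11 and 6 of the 39 genes in the same order, against 18.8%, 25.9%, 28.8% and 5.05% of all genes. The median log2 differences of the 39 genes were 0.48, 0.55, 0.31 and 0.48. Higher HF means in all 4 comparisons, which share no library, were found for 30 of the 39 (76.9%) and for 21.3% of 14767 genes tested in all 4. Rsad2 was the member lower in all 4.

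At a limma adjusted p under 0.05 with no fold limit, 1.17% of all genes were called in CTRL males, 5.35% in VDD males and 7.4% in CTRL females. In CTRL males Gbp2 alone of the 39 was called, with 861, 902 and 1070 normalized reads under LF and 1725, 1646 and 2058 under HF (log2 difference 0.93, limma adjusted p = 0.0377). In the same males Xaf1 had 233, 208 and 289 under LF and 416, 368 and 459 under HF (0.76, limma adjusted p = 0.0945), and Gbp3 had 305, 385 and 506 against 594, 735 and 891 (0.89, limma adjusted p = 0.0968). For these genes the CTRL LF and CTRL HF males did not overlap.

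In VDD males Parp14, Ddx58, Bst2 and Xaf1 were called. Parp14 had 759, 802 and 722 normalized reads under LF and 1247, 1242 and 1529 under HF (log2 difference 0.81, limma adjusted p = 0.0299). Ddx58 had 346, 346 and 360 under LF and 542, 587 and 657 under HF (0.76, limma adjusted p = 0.0309). Bst2 had 555, 579 and 514 under LF and 842, 976 and 877 under HF (0.71, limma adjusted p = 0.0322). For Xaf1 the log2 difference was 0.64 (limma adjusted p = 0.0494). In each of these genes the VDD LF and VDD HF males did not overlap.

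In CTRL females Ifi27l2a, Gbp2 and Irf9 were called. Ifi27l2a had 5634, 7244 and 6750 normalized reads under LF and 14840, 23490 and 19670 under HF (log2 difference 1.52, limma adjusted p = 0.0207). Gbp2 had 1174, 872 and 1098 under LF and 1687, 1937 and 1709 under HF (0.75, limma adjusted p = 0.0316), and Irf9 had 470, 413 and 472 against 669, 635 and 611 (0.48, limma adjusted p = 0.0424). In VDD females the smallest limma adjusted p was 0.837. There Ifi27l2a had 6265, 5984 and 7076 normalized reads under LF and 37760, 9995 and 31540 under HF (log2 difference 1.83). Bst2 of VDD females had 634, 560 and 643 against 1267, 722 and 1149 (0.73), and Irf9 had 391, 309 and 407 against 596, 433 and 590 (0.55). The groups did not overlap for these genes either, but the HF values of VDD females were spread, with VDD HF female b lowest for each.

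Over the 39 genes, all 3 HF libraries lay above all 3 LF libraries for 14 genes in CTRL males, 15 in VDD males, 13 in CTRL females and 10 in VDD females, on each table's own scale. The same held for 13.0%, 17.0%, 16.9% and 5.55% of all genes tested in these comparisons. Bst2 was the only member with no overlap in each of the 4, as were 0.549% of all genes. Dhx58, Gbp2, Irf9, Ifi27l2a and Xaf1 had none in 3 of the 4. Another 11 members had HF values above all LF values in none of the 4, among them Mx1, Oas3, Zbp1 and Igtp, and Rsad2, whose HF values lay below all LF values in CTRL females.

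By role, the nucleic acid sensors and the ISG15 system had higher HF means for all members in each of the 4 comparisons. The sensors had median log2 differences of 0.34 in CTRL males, 0.43 in VDD males, 0.31 in CTRL females and 0.46 in VDD females. The OAS family had medians of 0.40, 0.66, 0.35 and 0.61 in the same order, and the GTPases 0.62, 0.47, 0.29 and 0.62. The IFIT genes were less even, with 0.44 and 0.58 in males, 0.20 in CTRL females and -0.03 in VDD females, where 3 of the 4 had lower HF means. These medians are descriptions of the groups, and differences between them carry no test.

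Group means of the leading genes showed how far the strata resembled each other. Under CTRL, Bst2 stood at 597 ± 43.5 normalized reads (SD, n = 3) in LF males and at 989 ± 240 in HF males, and the VDD males had 549 ± 32.8 and 898 ± 69.5. In females Bst2 had 660 ± 127 and 1054 ± 125 under CTRL, and 612 ± 46.0 and 1046 ± 287 under VDD. The 4 LF groups thus lay within 549 to 660 and the 4 HF groups within 898 to 1054. Ifi27l2a had a wider range of LF means, with 9848 ± 4834 in CTRL LF males and 12630 ± 5534 in VDD LF males, but 6543 ± 825 and 6442 ± 567 in the LF females. Its HF groups had 19410 ± 8090, 20730 ± 2096, 19330 ± 4335 and 26430 ± 14570, in the order CTRL males, VDD males, CTRL females and VDD females. For Ifi27l2a neither the difference between sexes (-0.28, 95% interval -0.76 to 0.19) nor that between maternal diets (0.21, -0.26 to 0.68) passed the test.

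Isg15 averaged 80.3 ± 20.2 normalized reads in LF males of CTRL mothers and 124 ± 15.3 in CTRL HF males, and the other strata had HF means of 132 to 138. Stat2 had its highest mean in CTRL HF males, 821 ± 74.8, and its lowest in VDD LF females, 443 ± 101. Rsad2 had 589 ± 194 in CTRL LF females and 330 ± 89.7 in CTRL HF females, its widest step between diets, against 388 ± 47.0 and 378 ± 53.5 in CTRL males. On the scale of the CTRL female table the 3 HF values of Rsad2 lay below the 3 LF values, but on the joint scale they overlapped, with 429 in the highest HF and 423 in the lowest LF library.

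**Figure D4:**
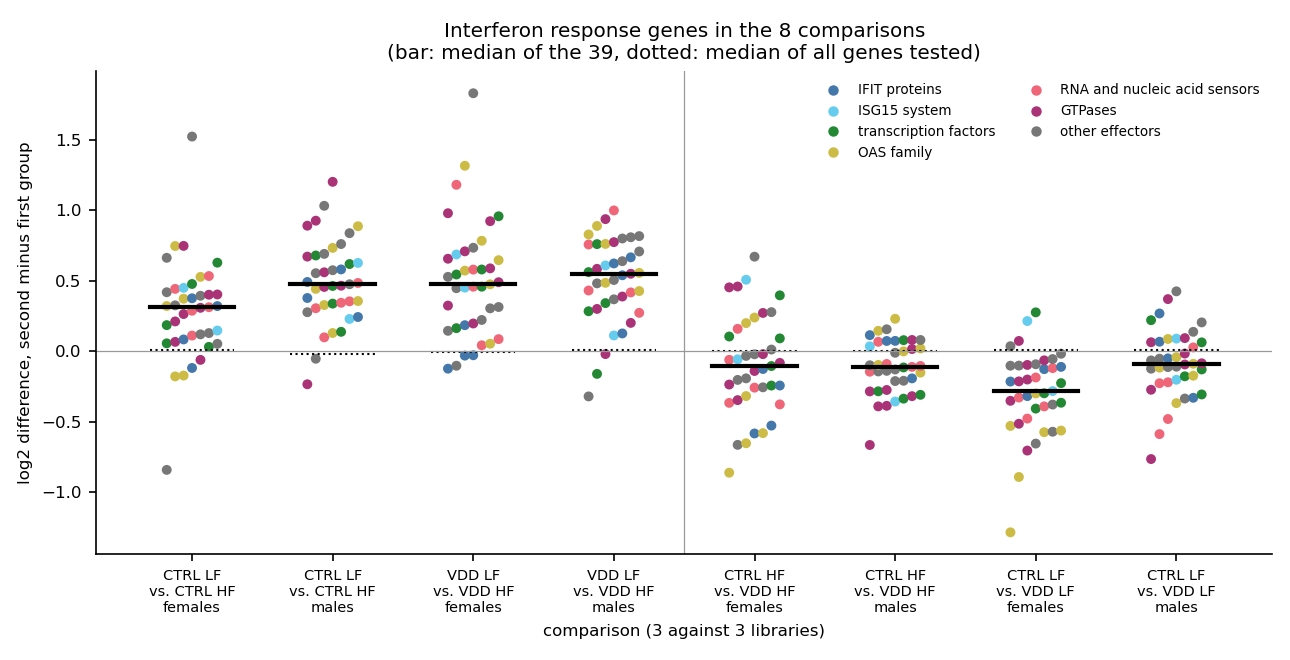
Log2 difference (y axis) of each of the 39 genes (points, coloured by role) in the 8 comparisons of 3 against 3 libraries, HF effects left and maternal VDD effects right. Black bars, the median of the 39, lie between 0.31 and 0.55 on the left and between -0.28 and -0.09 on the right, while the dotted medians of all genes lie near 0.

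Maternal VDD had a smaller and mostly negative difference in these genes. In the fit over all 24 libraries, 1 of the 39 fell, while 2.05% of all genes fell and 4.59% changed. VDD means were lower for 35 of the 39, with a median of -0.17 on the log2 scale (all genes -0.01), and 7 had an unadjusted p under 0.05, against 22.9% of all genes. Ddx58 was the gene called. It had 401, 533 and 764 normalized reads as the lowest, median and highest of 12 CTRL libraries and 299, 434 and 657 of 12 VDD libraries. Its log2 difference was -0.31 ± 0.08 (SE, 95% interval -0.49 to -0.13, limma adjusted p = 0.0395), and the ranges overlapped. The call of Ddx58 was lost in 19 of 29 other fits at the same threshold (adjusted p from 0.0166 to 0.219). Among them were the fits without the 4 muscle-rich libraries and without the 6 libraries named renal. The first of these left VDD HF male c alone in its group, so calls of that fit cannot be weighed, for Ddx58 or for other genes. In the fit without the libraries named renal only 1 of all 18058 genes was called, so this loss was not particular to Ddx58. Xaf1 came next, with 208, 330 and 459 normalized reads in CTRL libraries and 181, 267 and 369 in VDD libraries (-0.27, limma adjusted p = 0.0625). Parp14 had 733, 1000 and 1730 in CTRL libraries and 487, 825 and 1530 in VDD libraries (-0.33, limma adjusted p = 0.0734). Eif2ak2 and Ifit2 had medians of 419 and 302 normalized reads in CTRL libraries and 340 and 258 in VDD libraries (both -0.27, limma adjusted p = 0.126 and 0.167). None of these 4 passed the test. Fibroblast markers were lower too, with 3 of 4 called, and 9 of 10 macrophage markers had lower VDD means with none called. All 8 skeletal muscle markers had higher VDD means, by 1.82 to 3.03 on the log2 scale with none called, and the 4 muscle-rich libraries all belong to VDD groups. Their part in these values was not tested.

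In the 4 comparisons of CTRL with VDD within a diet and sex, the study's limits called 0 of the 39 by limma and by limma-voom. Of all genes they called by limma 0.0% for maternal VDD in LF sons, 0.0% in HF sons, 0.0% in LF daughters and 0.0% in HF daughters. The paper, with DESeq2, reported called genes in each of these 4 comparisons. At an unadjusted p under 0.05 there were 2, 1, 6 and 6 of the 39, against 6.79%, 5.31%, 12.0% and 16.7% of all genes. Median log2 differences of the 39 genes were -0.09, -0.11, -0.28 and -0.10. VDD means were lower for 35 of the 39 in LF females and for 26 of the 39 in each of the other three comparisons. All 3 VDD libraries lay below all 3 CTRL libraries for 2 of the 39 genes in LF sons and 2 in HF sons, and for 6 in LF daughters and 7 in HF daughters, on each table's own scale. In the same order this held for 6.59%, 5.25%, 9.74% and 11.8% of all genes tested.

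Members with the smallest p in LF males were Ddx58, Dhx58 and Mx1. Ddx58 had 565, 407 and 521 normalized reads in the LF males of CTRL mothers and 346, 346 and 360 in VDD LF males (log2 difference -0.48, limma adjusted p = 0.686). Dhx58 had 126, 109 and 130 against 89.7, 64.4 and 87.8 (-0.59), and Mx1 had 40.5, 48.6 and 87.3 against 46.1, 21.8 and 32.8 (-0.76). Ddx58 and Dhx58 did not overlap between these groups, while Mx1 did. In HF males Igtp had 598, 473 and 766 normalized reads in CTRL mice and 394, 379 and 377 in VDD mice (log2 difference -0.66, limma adjusted p = 0.940). Stat2 had 739, 837 and 886 against 687, 604 and 759 (-0.28), and Irgm1 had 179, 182 and 217 against 128, 132 and 191 (-0.39). Of these 3 genes only Igtp had no overlap.

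In LF females Oasl2 had 589, 549 and 523 normalized reads in CTRL mice and 373, 319 and 470 in VDD mice (log2 difference -0.53, limma adjusted p = 0.391). Xaf1 had 313, 294 and 347 against 202, 181 and 266 (-0.57), and Parp14 had 1003, 924 and 912 against 524, 487 and 848 (-0.65). All 3 genes were lower in each VDD LF female than in any CTRL LF female. In HF females Oasl2 had 776, 541 and 918 against 513, 290 and 420 (-0.86, limma adjusted p = 0.209), and Ifi44 had 229, 163 and 146 against 126, 100 and 105 (-0.66). Usp18 differed the other way, with 134, 125 and 145 normalized reads in CTRL HF females and 206, 200 and 166 in VDD HF females (0.51, limma adjusted p = 0.234). None of these differences passed the test.

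Between the sexes, 1 of the 39 genes differed by the test, compared with 19.8% of all genes. Parp14 fell by 0.38 on the log2 scale from males to females (SE 0.11, limma adjusted p = 0.0151) and was called in 29 other fits at this threshold, but not at the stricter limits. It had 722, 1210 and 1730 normalized reads as the lowest, median and highest of 12 male libraries and 487, 892 and 1220 of 12 female libraries, so the ranges overlapped. Oas2 had medians of 370 normalized reads in males and 236 in females, a log2 difference of -0.56 (limma adjusted p = 0.0520). Oas3 differed by -0.76 (limma adjusted p = 0.0760), Rsad2 by 0.29 (0.164) and Ifi44 by 0.33 (0.164). The median of the 39 was 0.01, with 20 higher and 19 lower in females, and its sign changed with the scaling (-0.01 by limma-voom). Of 10 macrophage markers, by contrast, 8 were called lower in females, and all 3 adrenal markers tested were called higher, Hsd3b1 most at 6.93 on the log2 scale. Their part in these values was not tested.

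No difference between the HF effects of the sexes was called by limma among the 39 genes, as also by limma-voom, with 0.0435% of all genes called. Among the 39, 2 had an unadjusted p under 0.05, Ifit2 (-0.65, limma adjusted p = 0.421) and Xaf1 (-0.41, 0.473). Ifit2 had 238, 238 and 332 normalized reads in the LF males of CTRL mothers and 306, 482 and 364 in CTRL HF males. In females it had 321, 327 and 239 under CTRL LF and 298, 290 and 239 under CTRL HF, so only the males had higher HF means. For Ifi27l2a the difference between sexes was 0.77, with a 95% interval of -0.18 to 1.71. Between maternal diets the HF effect was also not called for any member by limma or limma-voom (0.0% of all genes), and none had an unadjusted p under 0.05. The smallest p there were those of Mx1 (0.89), Parp14 (0.34) and Ddx58 (0.26), each with a limma adjusted p near 1.00. For Bst2 the interval of the difference between maternal diets was -0.39 to 0.44. The maternal effect did not differ between sexes by limma or limma-voom for any member (0.0% of all genes), with unadjusted p under 0.05 for Usp18 (0.63, limma adjusted p = 0.699) and Oas2 (-0.90, 0.739).

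In several groups one library was highest or lowest for most of the 39 genes. The mean log2 deviation of the 39 genes from their overall means ran from -0.604 (VDD LF female b) to 0.605 (VDD HF male c), with a pooled SD within groups of 0.261. VDD HF male c was highest in its group for 31 of the 39 genes and for 39.1% of all genes tested, and CTRL LF male c for 32 and 33.6%. VDD HF female a was highest for 31 genes (32.3% of all) and VDD LF female c for 30 (38.0% of all). VDD HF female b was lowest for 29 genes (33.9% of all) and VDD LF female b for 30 (25.0% of all). Other groups were more evenly split, as in CTRL LF females, whose libraries were highest for 19, 7 and 13 genes, and CTRL HF females, with 23, 12 and 4. In VDD HF female a, which also had the most T cell and NK cell markers, Irf8 stood at 690 normalized reads against 199 and 195 in females b and c. Igtp in these females had 1306, 423 and 616 normalized reads, and Irf7 had 1035, 489 and 561. Without this female the HF median of the 39 genes was 0.39 and 21 of them were called (share of all genes not given here). The SD of these library means was 0.122 in CTRL HF males, 0.119 in CTRL HF females and 0.120 in CTRL LF females, and it was largest in VDD HF females at 0.398.

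Summed markers of macrophages, like these values, were higher under HF diet. Over 10 markers the sums were 5130, 8120 and 24800 normalized reads as the lowest, median and highest of LF libraries. HF libraries had 6060, 16400 and 38700. Across groups the order was not the same. The mean sum was 17400 in CTRL LF males and 14000 in CTRL HF females, while the 39 genes had mean log2 deviations of -0.192 and 0.241. The library highest for most of the 39 genes was also highest in macrophage markers in 7 of 8 groups, in neutrophil markers in 8 of 8, in erythroid markers in 6 of 8 and in adipocyte markers in 1 of 8. Under HF diet 8 of the 10 macrophage markers rose, Itgax most at 2.04 on the log2 scale, and Mertk fell. Conventional dendritic cell markers rose for 3 of 5 (Cd209a by 1.06, Xcr1 by 0.96 and Clec9a by 0.67) and fibroblast markers for 3 of 4, while of 6 adipocyte markers 1 rose and 1 fell. The part of cell makeup in the HF difference of the 39 genes was not tested.

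**Figure D5:**
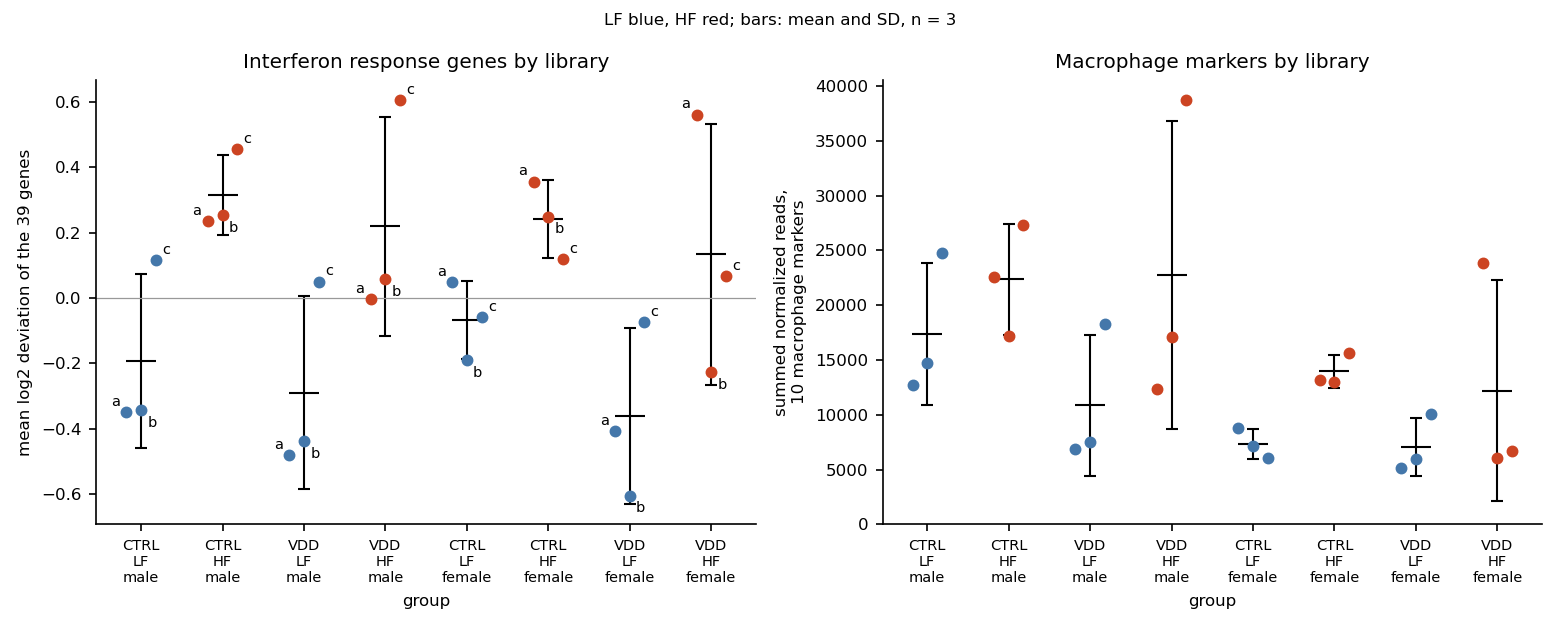
Left, the mean log2 deviation of the 39 genes in each library (points with the letter of the library), and right, the summed normalized reads of 10 macrophage markers in the same libraries, with the mean and SD of 3 per group. VDD HF male c is highest in both panels, and in 7 of 8 groups the top library is the same, CTRL HF females being the exception.

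Other genes of the pathway were read from a list of 101 symbols. Tmem173 and Mb21d1 also stood there as Sting1 and Cgas, names absent from the data. Of the 101 symbols, 85 passed the filter on low values. Under HF diet 30 rose and 4 fell, with a median log2 difference of 0.34, while 15.0% of all genes rose and 29.2% changed. None of 10 interferon ligands passed the filter. Ifna1, Ifna2, Ifna4, Ifna5, Ifnl2 and Ifnl3 had 0 reads in all 24 libraries, Ifnb1 had 1 read in 1 library, and Ifng had at most 10 reads, with 8 libraries at 0. Ligand transcripts were thus at or near the detection limit at this depth.

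Of the 6 receptor genes, Ifnlr1 was near that limit too, with at most 35 reads, and the other five had at least 273 normalized reads in every library. Ifnar1, a chain of the type I receptor, rose by 0.34 (limma adjusted p = 0.000127), Il10rb, a chain of the type III receptor, by 0.57 and Ifngr2 by 0.52, while Ifngr1, the other chain of the type II receptor, fell by 0.44 (limma adjusted p = 0.0126). Ifnar2 differed by 0.19 (limma adjusted p = 0.0544). The kinases Tyk2 and Jak1 rose by 0.34 and 0.20. The inhibitors Socs1 and Ptpn6 rose by 0.80 and 0.85, whereas Ptpn2, a phosphatase that also limits the pathway, fell by 0.40 (limma adjusted p = 0.000370). Irf5 rose by 0.70 and Irf3 differed by 0.05 (limma adjusted p = 0.764). Of the DNA-sensing genes, Tmem173 (STING) rose by 0.76 and Mb21d1 (cGAS) by 0.49.

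Among 56 further targets tested, 20 rose and 2 fell, beside 15.0% of all genes that rose and 29.2% that changed. Ciita, the master regulator of MHC class II, rose by 1.15, the chemokines Cxcl10 and Cxcl9 by 0.79 and 0.78, Ly6e by 0.68, Lgals9 by 0.62 and Ifitm3 by 0.60. Rnf213, Tgtp1, Sp100, Iigp1, Phf11d, Irgm2, Adar, Ifitm2, Uba7, Ly6a, Parp9, Trim21, Dtx3l and Pml rose by 0.25 to 0.60. Trafd1, a negative regulator of innate signalling, fell by 0.61 and Isg20, an exonuclease, by 0.46. B2m, Psmb8 and Nlrc5, genes of MHC class I presentation, differed by 0.33, 0.32 and 0.18 (limma adjusted p = 0.115, 0.113 and 0.329). Under maternal VDD 3 of the 85 passed the test, against 4.59% of all genes, with Ptpn2 higher by 0.26 and Phf11d and Pml lower (-0.31 and -0.28). Between the sexes 2 of the 85 rose and 11 fell in females, against 19.8% of all genes that differed in either direction.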

How the data were processed

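RNA from retroperitoneal adipose tissue of 24 mice was sequenced as stranded mRNA libraries. According to the submitters' processing notes the authors used STAR 2.7.0d on mm10, Cufflinks 2.2.1, featureCounts 1.6.1, SAMtools 1.9, MultiQC and DESeq2. They deposited 8 tables of 6 libraries each, with log2(normalized reads + 1) per gene. Uniquely aligned reads were counted, which leaves near-identical genes uncertain. The tables' fold changes and p-values by the authors were not used.

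From 56899 entries, 4 with duplicated names were dropped. Whole reads were recovered (100.0% of values within 0.02 of a whole number, with no value that differed between the 2 tables of a library) and rescaled jointly by the median of ratios over 17314 genes. A gene was tested where 3 or more libraries reached 10 normalized reads. Each table was fitted with limma 3.58.1 (R 4.3.3), called at adjusted p under 0.01 and a fold above 1.5 or below 0.66. A fit over all 24 libraries with 8 group means gave 6 contrasts, called at adjusted p under 0.05 (18399 genes, Benjamini-Hochberg). Fold changes are on the log2(normalized reads + 1) scale, which understates changes of low genes. Alternatives were limma-voom with TMM, no filter, a pseudocount of 10, other thresholds and libraries left out. The fit was tested on simulated data. Every member may be named, and values in every library are given for the members with the smallest p in each comparison (3) or contrast (5). The members and lists were chosen with earlier results of these data known. Depth per library sets counting error only. A pathway gene of the list is not reported here.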

Additional observations from a re-analysis of the deposited data

How the results depend on the processing

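No paired analysis was possible because the library columns carry mouse numbers and not the labels' replicate numbers. Shares of all genes in the fits with a library left out are not given here, so counts of members in those fits are descriptions only. With each library left out in turn, the HF difference over the 4 strata kept its direction. The median of the 39 genes was 0.390 to 0.496, and 21 to 28 genes were called (28 without VDD LF male c). The HF contrast called 13 without the libraries named renal, where 1737 of all 18058 genes rose. It called 9 at adjusted p under 0.01 and fold above 1.5, limits for which the share of all genes is not given here. The median stayed positive in all 29 other fits. For maternal VDD, 0 to 4 genes were called (4 without CTRL LF male b), with medians of -0.232 to -0.0964. The count was 0 by limma with no filter, without the renal libraries (where 1 of all 18058 genes was called) and at the stricter limits. For sex, 1 to 3 genes were called (3 without VDD LF female c) and 0 at the stricter limits. Its median ran from -0.0441 to 0.0750 with a library left out. It turned to -0.00673 by limma-voom, -0.0670 without the renal libraries and -0.0671 without the muscle-rich ones. The muscle-rich libraries were set aside after seeing the data, which left VDD HF male c alone in its group. For the HF effect between sexes the medians were -0.253 to -0.0466 with a library left out, 0.0268 without the renal libraries and -0.429 without the muscle-rich ones, with 0 to 0 calls. The HF effect between maternal diets had medians of -0.00667 to 0.133, and the maternal effect between sexes -0.189 to 0.0106 (0.00507 by limma-voom). Within the tables, calls at adjusted p under 0.05 with no fold limit numbered 1 in CTRL males, 4 in VDD males and 3 in CTRL females under HF, and the fit over all libraries at the study's limits called 1 in VDD males. Left-out libraries gave 0 to 0 calls in each table. Their medians were 0.408 to 0.647 in CTRL males, 0.365 to 0.711 in VDD males, 0.227 to 0.367 in CTRL females and 0.337 to 0.620 in VDD females for HF, and for maternal VDD -0.240 to 0.0880 in LF males (positive without CTRL LF male c), -0.307 to -0.0251 in HF males, -0.360 to -0.139 in LF females and -0.304 to 0.0928 in HF females (positive without VDD HF female b). The cause of these shifts was not tested. Members under about 50 normalized reads per library, such as Oas3, Oas1g, Mx1 and Mx2, carry the most counting error.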
